A study of Drosophila melanogaster with 40 samples.

Results

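Acute 2-AAPA feeding was compared with acute DMSO feeding in poly-A RNA from the heads of male Drosophila melanogaster, using 6 acute 2-AAPA libraries and 7 acute DMSO libraries of the 40 in the series. The libraries were chosen by their labels alone. Both groups were wild-type males, 10 days old, kept on ordinary food until the last 24 h. The 2-AAPA flies then ate instant medium with 10 µM 2-AAPA in DMSO, and the DMSO flies ate the same medium with 0.2% DMSO. Each library came from a pool of heads. The acute 2-AAPA pools held 19, 20, 20, 20, 20 and 13 heads in replicates 1 to 6, and every acute DMSO pool held 20 heads. The other 27 libraries came from flies fed MitoQ, or fed any of the agents for 10 days, and they entered the fit to estimate the spread between replicates.

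2-AAPA is used in the study as an inhibitor of the enzymes that keep thioredoxin and glutathione reduced. Thioredoxin and glutathione are small thiol carriers that pass electrons from NADPH to peroxiredoxins, peroxidases and oxidised proteins. Flies have no glutathione reductase gene, and thioredoxin reductase keeps glutathione reduced in its place. Oxidative and electrophilic stress in flies is known to act on transcription through cnc, the homologue of Nrf2, which Keap1 holds back. Its usual targets are glutathione S-transferases, glutathione synthesis enzymes and other detoxification genes. The comparison therefore asks which transcripts differ in heads after 1 day of 2-AAPA.

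Library totals ran between 25568670 and 28173268 reads in acute 2-AAPA, against 24494239 to 28874297 reads in acute DMSO. The totals averaged 26973800 ± 952396 and 27827500 ± 1494650 reads (SD, n = 6 and 7; p = 0.262, exact permutation test, two-sided). No 2 libraries held identical counts. Acute DMSO replicate 5 stood apart: it had the lowest total, and its values fell with gene length by 0.314 log2 units per doubling, against slopes between -0.138 and 0.080 in the other 12. Acute 2-AAPA replicate 1 had the second most negative slope, -0.138. Acute 2-AAPA replicate 6, from 13 heads, had a summed level of antisense RNA genes of 802 CPM (reads scaled to a common library size), against 531 to 615 CPM in the other 12 libraries. Acute 2-AAPA replicate 3 carried yolk protein reads, given with the genes of single libraries. Head identity was seen in all 13 libraries, with summed photoreceptor markers between 73018.6 and 91345 CPM in acute 2-AAPA and between 80819.8 and 88679.1 CPM in acute DMSO. Acute 2-AAPA replicates 2, 4, 5 and 6 (73552, 75694.4, 73987.9 and 73018.6 CPM) lay below every DMSO library, and replicate 1 was the highest of all. The same permutation test gave p = 0.107 for this sum, and 0.289 after adjustment over the 19 summed levels put to it. Testis and accessory gland markers summed to at most 1.2 CPM in acute 2-AAPA and at most 0.883 CPM in acute DMSO. In whole heads, fewer cells of a type and less RNA per cell cannot be told apart.

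After 24 h of 2-AAPA, 3 features were called higher and none lower at an adjusted p under 0.05, out of 11477 features tested (0.0261% higher and 0% lower; edgeR quasi-likelihood test, Benjamini-Hochberg adjustment). These were the antisense RNA asRNA:CR45955, the neuroblast gene mira, high in 1 library alone, and the uncharacterised gene CG3679. The count was 0 with no filter on low counts, with a replicate block, with only the 13 or the 20 acute libraries, and with a covariate for the length trend or for ribosomal RNA, and 0 in limma after cyclic LOESS, with 408 to 810 features under an unadjusted p of 0.05 in these fits. In edgeR it was also 0 without any 1 of acute DMSO replicates 1, 2, 3, 4, 6 and 7, with 557 to 1008 under 0.05. At an unadjusted p under 0.05 there were 272 features higher (2.37%) and 408 lower (3.55%), 680 in all, and 574 would be under 0.05 by that threshold alone. The median log2 fold change over all tested features was -0.00, and the median absolute value was 0.10. The 95% interval of the fold change lay wholly within a 1.5-fold change for 73.0% of the features and within a 2-fold change for 88.3%. A test with library weights (limma voom with sample quality weights) called 287 features higher (2.50%) and 339 lower (2.95%), while DESeq2 called 10. The weights ran between 0.0789 for acute DMSO replicate 5 and 3.97 for acute DMSO replicate 7, and acute 2-AAPA replicate 1 had 0.265. With acute 2-AAPA replicate 1 and acute DMSO replicate 5 left out and no weights, edgeR called 6 features, and 5 of these were among the 626 of the weighted test.

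asRNA:CR45955 (FBgn0267617) lies on chromosome 3L at 21636643 to 21637314 (BDGP6, minus strand) and overlaps the 5′ part of CG32444, which is read from the other strand. Its reads in acute 2-AAPA replicates 1 to 6 were 5, 63, 94, 51, 102 and 316, against 9, 5, 5, 16, 12, 6 and 8 in acute DMSO replicates 1 to 7. It was 12-fold higher in acute 2-AAPA (log2 fold change 3.59 ± 0.67, SE; adjusted p = 0.0349 in edgeR). Without acute 2-AAPA replicate 6 the log2 fold change of asRNA:CR45955 was 2.85 with an adjusted p of 0.134 in edgeR. The adjusted p in edgeR was 0.359 with the replicate block, 0.762 with only the 13 libraries compared, and 0.0851 to 0.142 without any 1 of acute DMSO replicates 1, 2, 3, 4, 6 and 7. Replicates 2 to 6 all exceeded every DMSO library, and replicate 1 lay among the DMSO libraries. In acute MitoQ flies, whose test shared the same controls, 3 of 7 libraries held 65, 47 and 95 reads and the other 4 held 3 to 13. CG32444 itself had 23247 to 34257 reads in acute 2-AAPA and 11287 to 36029 in acute DMSO, and its log2 fold change was 0.14 ± 0.21 (SE). As a share of CG32444, the antisense reads were between 0.217% and 1.18% in acute 2-AAPA replicates 2 to 6 and 0.0198% in replicate 1, against 0.0187% to 0.0797% in acute DMSO.

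mira encodes Miranda, the adaptor that carries fate determinants into one daughter of a dividing neuroblast. It lies on chromosome 3R at 19931799 to 19935120, inside the span of Hs6st on the same strand. It had 11, 20, 14, 1830, 16 and 20 reads in acute 2-AAPA, against 15, 18, 16, 12, 12, 17 and 28 in acute DMSO. The whole difference (log2 fold change 4.25 ± 0.80, SE; adjusted p = 0.0349 in edgeR) came from replicate 4, and without it the log2 fold change was -0.00. Surf6, a ribosome biogenesis gene at 19903665 on the same strand, was also high only there, with 4220 reads in replicate 4 and 195 to 339 in the other 2-AAPA libraries, against 236 to 342 in acute DMSO. DESeq2 gave mira no adjusted p.

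CG3679 (chromosome X, 16303870 to 16307377) overlaps asRNA:CR45485 on the same strand. It had 18, 46, 49, 26, 40 and 139 reads in acute 2-AAPA, against 14, 17, 14, 22, 17, 23 and 12 in acute DMSO. Replicates 2 to 6 were above every DMSO library and replicate 1 was within them. It was 3.16-fold higher (log2 fold change 1.66 ± 0.33, SE; adjusted p = 0.0495 in edgeR). Without acute 2-AAPA replicate 6 its log2 fold change was 1.10 with an adjusted p of 0.643.

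**Figure D1:**
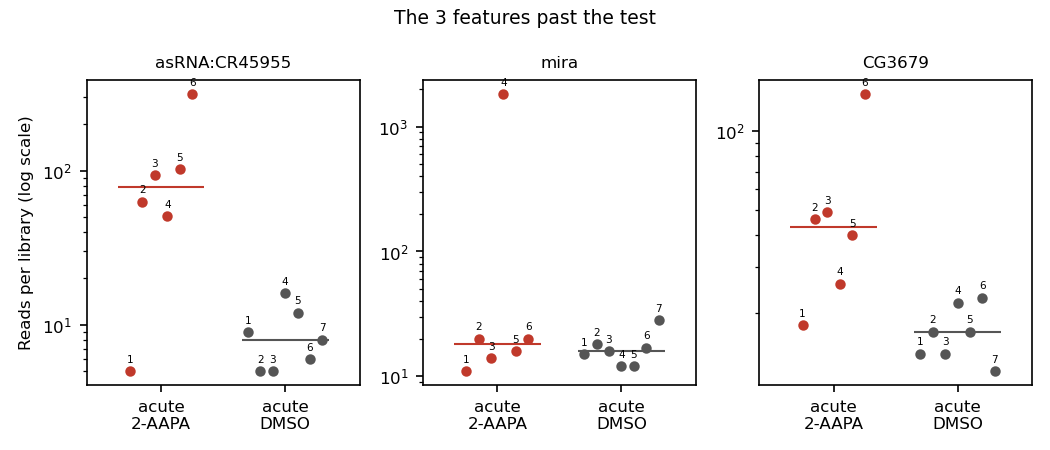
Reads per library (log scale) for asRNA:CR45955, mira and CG3679, with acute 2-AAPA libraries in red on the left and acute DMSO libraries in grey on the right; numbers are replicates and lines are medians. Replicate 1 lies with the DMSO libraries for asRNA:CR45955 and CG3679, and mira is high in replicate 4 alone, at 1830 reads.

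Other antisense RNA genes were also high in acute 2-AAPA replicate 6. Of 199 tested antisense genes, a group chosen after values were seen, 24 were higher and 3 lower at an unadjusted p under 0.05, beside 2.37% and 3.55% of all features, and 1 passed the adjusted test. Acute 2-AAPA replicate 6 was the highest of the 13 libraries for 22 of the 24. asRNA:CR45894, opposite Pdh, the retinal dehydrogenase gene of pigment cells, had 42, 212, 374, 168, 245 and 888 reads in acute 2-AAPA, against 47, 64, 30, 32, 92, 30 and 35 in acute DMSO (log2 fold change 2.72 ± 0.59, SE; adjusted p = 0.112 in edgeR). Again replicate 1 lay among the DMSO libraries and replicates 2 to 6 above them. asRNA:CR11538, opposite the storage protein gene Lsp2, had 36, 174, 74, 59, 115 and 875 reads, against 13, 71, 70, 51, 27, 10 and 23. asRNA:CR31144, opposite the ribosomal protein gene RpL3, had 7, 9, 29, 21, 16 and 252 reads, against 8, 8, 10, 15, 9, 4 and 4. Here replicate 6 alone was far from the rest. An annotated gene lay opposite 21 of the 24, and its mean count had a median of 4564 reads, against 1554 for the 189 tested antisense genes with such a partner. The library kit keeps strand, but the strand setting of the counting was not given in the sources used here. Reads of a gene and of its antisense partner could therefore be mixed to a different extent in each library, and that part was not tested.

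Single libraries also held high values of genes that were low in the others. In acute 2-AAPA replicate 1, 43 features were over 4-fold above the median of the other 12 libraries, and l(3)mbn was the farthest above. Genes of the antenna were among the 43. Obp83b, an odorant-binding protein, had 621 reads in replicate 1 and 10 to 18 in the other 2-AAPA libraries, against 8 to 19 in acute DMSO. Its neighbour Obp83a had 594 reads there and 14 to 24 in the other 2-AAPA libraries, against 16 to 31 in acute DMSO. The lipase gene Lip1 had 266 reads there and 20 to 28 in the other 2-AAPA libraries, against 4 to 24 in acute DMSO. Of the 5 antennal markers tested, 4 were higher at an unadjusted p under 0.05, beside 2.37% of all features. None was without replicate 1, where the list's median log2 fold change moved to -0.09. In acute 2-AAPA replicate 3 the yolk protein genes Yp1 and Yp2, which females express, had 294 and 191 reads. The other 2-AAPA libraries had 4 to 70 reads of Yp1 and 12 to 42 of Yp2, against 8 to 22 and 11 to 24 in acute DMSO. Without replicate 3 the log2 fold change of Yp2 was 0.43. Summed over Yp1, Yp2 and Yp3, yolk proteins ran between 60.1 and 109 CPM in acute 2-AAPA and between 59.7 and 107 CPM in acute DMSO. In acute 2-AAPA replicate 3, Yp1 and Yp2 gave 11.1 and 7.2 CPM of the 109 CPM, so Yp3 made up most of that sum. Yp3 had a log2 fold change of -0.16.

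Acute 2-AAPA replicate 5 held 1438 reads of Desat2, a fatty acid desaturase of cuticular hydrocarbon synthesis, and the other 2-AAPA libraries 3 to 12, against 1 to 8 in acute DMSO. Among the controls, acute DMSO replicate 4 held 7234 reads of TotM, a secreted stress peptide, and 320 of Diedel, an immune-induced secreted protein. The other DMSO libraries had 167 to 998 reads of TotM and 2 to 17 of Diedel, and acute 2-AAPA had 149 to 315 of TotM and 5 to 15 of Diedel. Acute DMSO replicate 5 held immune transcripts, with 5878 reads of the serine protease homologue SPH93, 1144 of the antimicrobial peptide Mtk and 7020 of the bomanin BomBc1. The other DMSO libraries had at most 26, 181 and 1571 reads of these genes. Acute 2-AAPA had at most 53, 250 and 1848. Over the 13 tested antimicrobial peptides the median log2 fold change was -0.23 with all libraries and 0.43 without DMSO replicate 5, and over 12 bomanins it was -0.17 and 0.32.

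**Figure D2:**
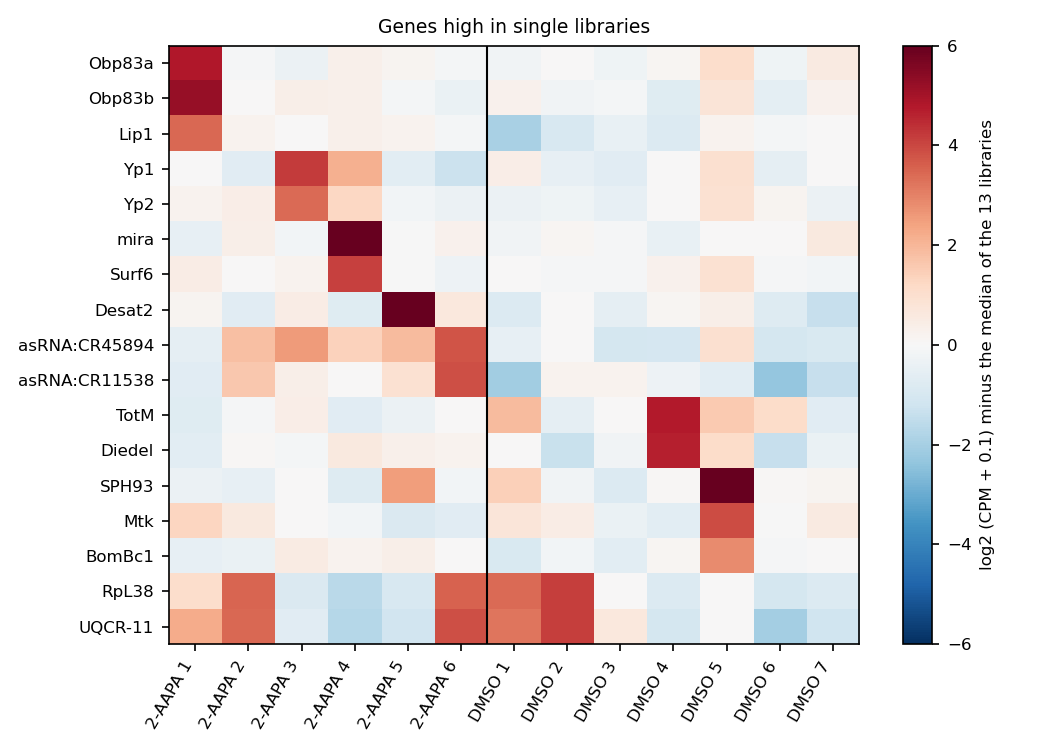
Deviation of log2 (CPM + 0.1) from the median of the 13 libraries for 17 genes, with acute 2-AAPA libraries left of the line and acute DMSO libraries right of it. Most rows are high in 1 library, such as Obp83b in 2-AAPA replicate 1 and SPH93 in DMSO replicate 5, the antisense rows are highest in 2-AAPA replicate 6, and RpL38 and UQCR-11 are high in libraries of both groups.

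The groups did not overlap for 7 features that were higher (0.061% of those tested) and 1 that was lower (0.00871%), and none of the 8 passed the adjusted test (adjusted p = 0.839 each in edgeR). GstE10, a glutathione S-transferase gene, had 12, 14, 16, 10, 13 and 19 reads in acute 2-AAPA, against 6, 6, 7, 5, 7, 3 and 7 in acute DMSO (log2 fold change 1.26 ± 0.63, SE). These are low counts, and GstE10 overlaps GstE1 on the other strand. Ugt37D1, a UDP-glycosyltransferase gene, was measured more closely: it averaged 75.3 ± 2.45 CPM in acute 2-AAPA and 66.0 ± 4.61 CPM in acute DMSO (SD, n = 6 and 7; log2 fold change 0.19 ± 0.07, SE). CG42329 had 487 to 920 reads in acute 2-AAPA and 204 to 488 in acute DMSO, apart only after scaling to CPM, with a log2 fold change of 0.59. The others higher were CG14443 (log2 fold change 0.77), the transposon family DIVER_I-int:Pao:LTR (0.63) and the histone pseudogenes His-Psi:CR33805 (1.04) and His-Psi:CR33802 (1.03). The histone pseudogenes share near-identical copies, so their counts are uncertain. CG8736 was the lower one, with 20, 17, 17, 15, 20 and 20 reads in acute 2-AAPA, against 24, 21, 26, 23, 33, 27 and 35 in acute DMSO (log2 fold change -0.56).

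The thioredoxin system showed no feature past the test. Trxr1, the thioredoxin reductase gene, averaged 264 ± 21.1 CPM in acute 2-AAPA and 279 ± 42.3 CPM in acute DMSO (SD, n = 6 and 7). Its log2 fold change was -0.08, with a 95% interval between -0.27 and 0.12. Trxr2, the other reductase, had 1 read in 1 of the 6 acute 2-AAPA libraries and 1 read in each of 2 of the 7 acute DMSO libraries, which is too few for a test. Of 20 listed members of the system 14 could be tested, none at an unadjusted p under 0.05, and log2 fold changes ran between -0.24 and 0.31. Srx, the sulfiredoxin that repairs overoxidised peroxiredoxins, had the smallest p of the list (log2 fold change -0.20; adjusted p = 0.839 in edgeR). The list's median was -0.12, and 0.02 without DMSO replicate 5.

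Of 10 tested genes of glutathione synthesis and its regulators, 2 were higher and 1 lower at an unadjusted p under 0.05, beside 2.37% and 3.55% of all features. None passed the adjusted edgeR test, and the median log2 fold change was 0.03. Gclc, the catalytic subunit of the first enzyme of glutathione synthesis, had a log2 fold change of 0.08, and Gss1, a glutathione synthetase gene, one of -0.03. Keap1 averaged 23.9 ± 2.1 CPM in acute 2-AAPA and 20.7 ± 2.4 CPM in acute DMSO (SD, n = 6 and 7; log2 fold change 0.20; adjusted p = 0.839 in edgeR). cnc had 3014 to 5896 reads in acute 2-AAPA and 1455 to 4617 in acute DMSO (log2 fold change 0.37), and maf-S, the small Maf partner of cnc, had a log2 fold change of -0.35. The weighted test called Keap1 (adjusted p = 0.0282 in limma) and cnc (adjusted p = 0.0396 in limma) higher, and it did not call maf-S.

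Enzymes that remove superoxide and hydrogen peroxide gave no call in edgeR. Catalase, Cat, averaged 306 ± 23.4 CPM in acute 2-AAPA and 268 ± 33.6 CPM in acute DMSO (SD, n = 6 and 7; log2 fold change 0.19, 95% interval -0.01 to 0.39; adjusted p = 0.839 in edgeR, 0.0351 with weights in limma). Sod1, the cytosolic superoxide dismutase, and Sod2, the mitochondrial one, had log2 fold changes of -0.09 and -0.15.

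Of 33 tested glutathione S-transferase genes, none had an unadjusted p under 0.05, and the median log2 fold change was -0.05, or 0.08 without DMSO replicate 5. The weighted test called 1 of the 33 higher and 1 lower, beside 2.50% and 2.95% of all features. Cytochrome P450 genes, which oxidise foreign compounds, had 2 higher and 1 lower of 78 at that level, beside 2.37% and 3.55% of all features. The P450 gene Cyp4s3 had 319, 531, 365, 590, 605 and 530 reads in acute 2-AAPA, against 307, 435, 371, 383, 330, 414 and 411 in acute DMSO (log2 fold change 0.40; adjusted p = 0.797 in edgeR, 0.00886 with weights in limma). UDP-glycosyltransferase genes, which add sugars to foreign compounds, had positive log2 fold changes in 21 of 24, with a median of 0.13. Of the 24, 2 were higher under 0.05, beside 2.37% of all features.

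**Figure D3:**
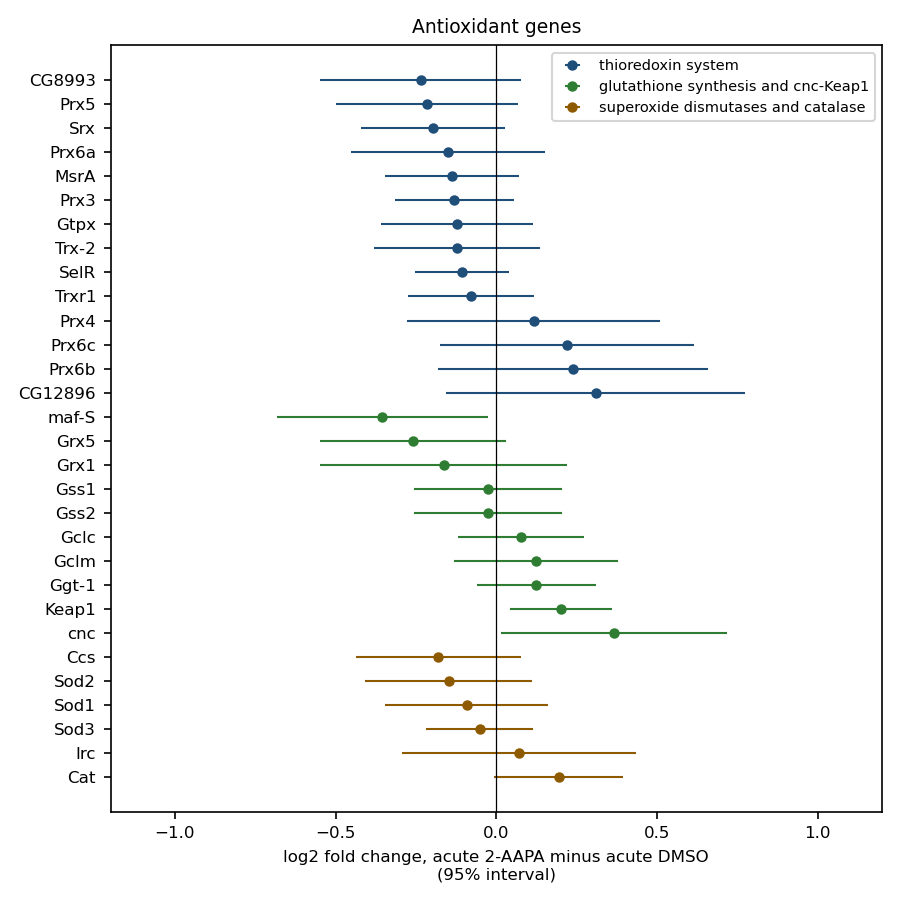
Log2 fold change (acute 2-AAPA minus acute DMSO) with its 95% interval for the tested members of 3 antioxidant lists. All points lie between -0.35 and 0.37, and only the intervals of Keap1, cnc and maf-S leave out 0.

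Metabolic genes showed smaller differences that were shared by several libraries, though none passed the adjusted edgeR test. Purine and one-carbon synthesis genes, a list drawn up after values were seen, make the purine ring and the folate-bound carbon it needs. Of its 17 genes, 14 had positive log2 fold changes, 7 were higher and 0 lower at an unadjusted p under 0.05 (2.37% and 3.55% of all features), and the median was 0.24 beside -0.00 over all features. Leaving out each library in turn kept the median between 0.16 and 0.34. The weighted test called 6 of the 17 higher, beside 2.50% of all features: Prps, Gart, Paics, pug, CG3999 and CG11089. The summed level of the list was 2531 ± 430.5 CPM in acute 2-AAPA and 2043 ± 163 CPM in acute DMSO (SD, n = 6 and 7). The exact permutation test, two-sided, gave p = 0.0204 for this sum, and 0.289 after adjustment over the 19 summed levels.

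Gart, which encodes a protein with 3 activities of purine synthesis, had 2275, 4609, 2599, 4025, 5353 and 3516 reads in acute 2-AAPA, against 2466, 2838, 2048, 2613, 1976, 2362 and 2813 in acute DMSO. Replicates 2, 4, 5 and 6 exceeded all DMSO libraries, and replicates 1 and 3 were within them. The log2 fold change was 0.65 ± 0.18 (SE; adjusted p = 0.54 in edgeR, 0.016 with weights in limma). Paics, the next bifunctional enzyme of the path, had 7572, 12225, 9267, 11328, 13854 and 10947 reads, against 7958, 8065, 6889, 9620, 6673, 7597 and 8922 (log2 fold change 0.48 ± 0.17, SE). CG3999, a glycine decarboxylase that feeds one-carbon units, had 359, 567, 248, 591, 549 and 400 reads, against 191, 397, 239, 246, 197, 304 and 292 (log2 fold change 0.80 ± 0.23, SE). Prps, which makes the ribose phosphate donor, had a log2 fold change of 0.41 ± 0.13 (SE). The folate enzyme pug had one of 0.40 ± 0.17 (SE). In Prps and pug too, replicate 1 was within the DMSO libraries.

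Lipid metabolism genes had positive log2 fold changes in 16 of 18, with a median of 0.17, and 4 were higher and 0 lower at an unadjusted p under 0.05, beside 2.37% and 3.55% of all features. AcCoAS, which activates acetate, averaged 976 ± 172 CPM in acute 2-AAPA and 773 ± 76.6 CPM in acute DMSO (SD, n = 6 and 7; log2 fold change 0.34; adjusted p = 0.839 in edgeR, 0.0309 with weights in limma). ACC, the rate-limiting enzyme of fatty acid synthesis, had a log2 fold change of 0.33 and the triglyceride lipase gene bmm one of 0.35. The weighted test called ACC, AcCoAS, bmm and Lsd-1 of this list. ATPCL, which splits citrate into acetyl-CoA and was picked after values were seen, had a log2 fold change of 0.28 ± 0.09 (SE). Of 14 tested sugar sensing and digestion genes, 2 were higher and 2 lower at an unadjusted p under 0.05, with a median log2 fold change of 0.06. The smallest p of that list was that of the trehalose transporter gene Tret1-1 (log2 fold change 0.31 ± 0.11, SE). The weighted test called 4 of the 14 higher and 2 lower, beside 2.50% and 2.95% of all features.

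All 7 NADPH-supplying genes had positive log2 fold changes, with a median of 0.21 (0.18 to 0.30 with each library left out). Of the 7, 1 was higher under an unadjusted p of 0.05, beside 2.37% of all features. Men, the malic enzyme, had 14198, 22808, 21411, 19657, 26836 and 22258 reads in acute 2-AAPA, against 15843, 17444, 15989, 21027, 13412, 20644 and 20589 in acute DMSO (log2 fold change 0.29 ± 0.14, SE; adjusted p = 0.0491 with weights in limma). Pgd and Zw, of the pentose phosphate path, had log2 fold changes of 0.24 and 0.10, and Idh, the NADP-dependent isocitrate dehydrogenase, had 0.21. Summed over the list, levels were 2879 ± 300.4 CPM in acute 2-AAPA and 2467 ± 320.1 CPM in acute DMSO (SD, n = 6 and 7). The exact permutation test, two-sided, gave p = 0.042 for this sum, and 0.289 after adjustment over the 19 summed levels.

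**Figure D4:**
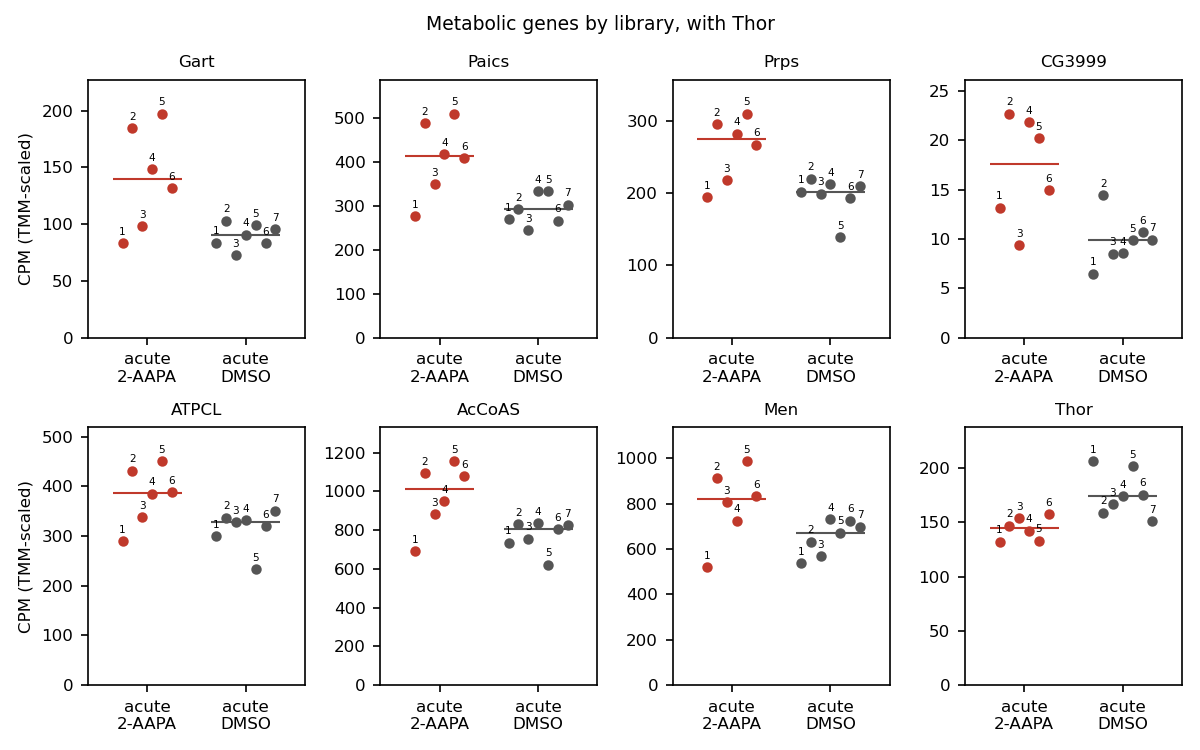
CPM of 7 metabolic genes and Thor by library, with acute 2-AAPA in red on the left and acute DMSO in grey on the right; numbers are replicates and lines are medians. For Gart, replicates 2, 4, 5 and 6 of acute 2-AAPA lie above all DMSO libraries, and replicate 1 lies among them.

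Of 9 tested larval serum and fat body protein genes, 8 had positive log2 fold changes, and the median was 0.14 with a range of -0.58 to 1.67. At an unadjusted p under 0.05, 2 were higher and 0 lower, beside 2.37% and 3.55% of all features. Lsp1alpha, a larval storage protein gene, had 543, 1701, 500, 391, 1513 and 954 reads in acute 2-AAPA, against 47, 272, 419, 433, 426, 133 and 316 in acute DMSO (log2 fold change 1.67 ± 0.51, SE; adjusted p = 0.797 in edgeR, 0.0113 with weights in limma). Replicates 2 and 5 were highest, as they were for Gart. Lsp2 had 19229, 73190, 31910, 29370, 64735 and 47044 reads, against 3761, 24640, 26007, 19410, 24104, 15674 and 32757 (log2 fold change 1.10 ± 0.44, SE). Summed fat body markers were 8739 ± 1913 CPM in acute 2-AAPA and 6968 ± 1599 CPM in acute DMSO (SD, n = 6 and 7; p = 0.0973, exact permutation test, two-sided). Summed blood cell markers were 168 ± 26.7 CPM in acute 2-AAPA and 145 ± 19.6 CPM in acute DMSO (SD, n = 6 and 7; p = 0.0833, same exact permutation test). Adjusted over the 19 summed levels put to this permutation test, p was 0.289 for each. Acute 2-AAPA replicates 2, 4, 5 and 6, above all DMSO libraries for Gart, were below all of them for summed photoreceptor markers. The part of fat body tissue in the head pools in the metabolic differences was not tested, and neither was that of photoreceptors. Hml, the clotting protein of blood cells, had a log2 fold change of 0.48.

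Of 14 tested insulin and FoxO genes, 9 had positive log2 fold changes, and the median was 0.08. At an unadjusted p under 0.05, 1 was higher and 1 lower, beside 2.37% and 3.55% of all features. The weighted test called 1 of the 14, bmm, higher. Thor, the 4E-BP that restrains translation and is induced by FoxO, had a negative log2 fold change, with 3606, 3671, 4084, 3856, 3608 and 4215 reads in acute 2-AAPA, against 6088, 4377, 4683, 5013, 4021, 4992 and 4448 in acute DMSO. The lowest DMSO value, in replicate 5, is from the library with the smallest total, and the groups averaged 144 ± 10.5 CPM in acute 2-AAPA and 176 ± 20.8 CPM in acute DMSO (SD, n = 6 and 7; log2 fold change -0.29 ± 0.09, SE; adjusted p = 0.77 in edgeR). Nepl4, a neprilysin-like peptidase gene picked after values were seen, had 153, 58, 183, 177, 127 and 122 reads, against 760, 143, 205, 284, 171, 493 and 214 (log2 fold change -1.19 ± 0.30, SE). Its DMSO replicates 1 and 6 were far above the rest. TotM had a log2 fold change of -2.67, and -1.09 without DMSO replicate 4.

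Genes of ribosomes and of the respiratory chain had small negative log2 fold changes, and none passed the adjusted test. All 71 mitochondrial ribosomal protein genes had negative log2 fold changes, with a median of -0.25, and 21 were under an unadjusted p of 0.05, beside 3.55% of all features lower. Of 77 cytosolic ribosomal protein genes 76 were negative (median -0.24, 4 under 0.05), as were 65 of 73 nuclear genes of the respiratory chain (median -0.23, 11 under 0.05) and 31 of 34 proteasome genes (median -0.12, 0 under 0.05). mRpS18B had 361, 240, 359, 322, 257 and 233 reads in acute 2-AAPA, against 338, 329, 348, 372, 371, 405 and 361 in acute DMSO (log2 fold change -0.27). RpL29 had 23061, 12181, 16698, 15102, 12709 and 14375 reads, against 18184, 17081, 17131, 20690, 32259, 20647 and 19282 (log2 fold change -0.44), and ND-MWFE, a complex I subunit, had a log2 fold change of -0.37. Acute DMSO replicate 5 was the highest library for RpL29 and ND-MWFE, and acute 2-AAPA replicate 1 was second. These are the libraries with the most negative length slopes. Without DMSO replicate 5 the medians were -0.07, -0.02 and -0.03 for mitochondrial ribosomal, cytosolic ribosomal and respiratory chain genes. None of these genes was then under 0.05, beside 538 of all 11473 features tested in that fit. Without 2-AAPA replicate 1 the medians were -0.37, -0.31 and -0.31, with 58, 31 and 45 under 0.05. In that fit 1567 of all 11540 features, in both directions, were under 0.05. With the length slope as a covariate they were -0.15, -0.11 and -0.11. The weighted test called 20 mitochondrial ribosomal protein genes lower, beside 2.95% of all features.

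**Figure D5:**
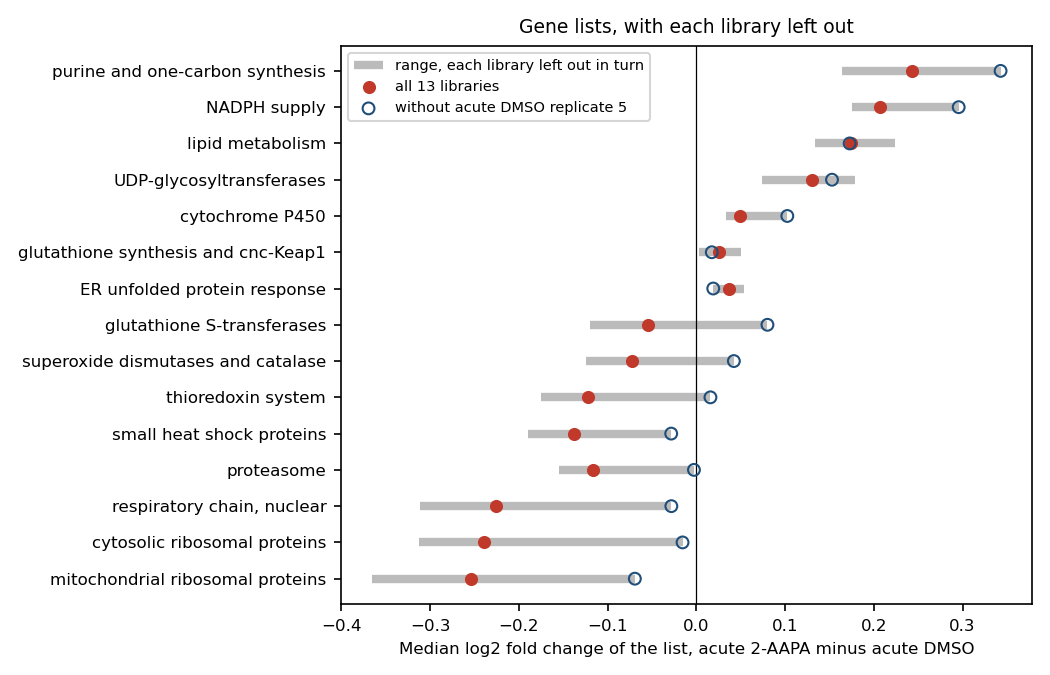
Median log2 fold change (acute 2-AAPA minus acute DMSO) of 15 gene lists with all 13 libraries (red), the range when each library is left out (grey bar) and the value without acute DMSO replicate 5 (open circle). The purine, NADPH and lipid medians stay above 0 throughout. So do the smaller medians of the UDP-glycosyltransferase, cytochrome P450, ER unfolded protein response and glutathione synthesis lists. Those of ribosomal and respiratory chain genes come near 0 without DMSO replicate 5.

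Stress chaperones and other head functions gave few values under an unadjusted p of 0.05, where 2.37% of all features were higher and 3.55% lower. Of 10 heat-inducible Hsp70 and Hsp90 genes none was under an unadjusted p of 0.05, and Hsp70Bb had 1375, 1034, 1290, 1196, 1160 and 1040 reads in acute 2-AAPA, against 1616, 1123, 1419, 1516, 806, 1345 and 1525 in acute DMSO (log2 fold change -0.12). Of 12 small heat shock genes none was under 0.05 either. Hsc70-3, the chaperone BiP of the endoplasmic reticulum, had a log2 fold change of 0.18 ± 0.07 (SE; adjusted p = 0.839 in edgeR, 0.0288 with weights in limma) and was the only one of 12 genes of its list under 0.05. MtnA, the metal-binding metallothionein, had one of -0.44, with 53099 reads in DMSO replicate 5 and 18318 to 23646 in the other DMSO libraries, and 0.02 without that library. Neuronal markers had none of 10 under 0.05 and a median of 0.06. Photoreceptor genes had negative log2 fold changes in 13 of 16, 1 lower under 0.05 and a median of -0.07. Their lowest p was that of ninaA, the rhodopsin chaperone (log2 fold change -0.30). The weighted test called 2 of the 16 photoreceptor genes lower and 0 higher, beside 2.95% and 2.50% of all features. Transposable element families had 3 higher and 2 lower of 184.

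Flies fed 2-AAPA for 10 days, set against their own DMSO group, allowed a test of whether the effect differed between schedules. It called 29 features (0.253% of those tested), 27 with a higher log2 fold change in acute feeding and 2 with a lower one. CG3679 had a log2 fold change of 1.66 in acute feeding and -0.66 in chronic feeding (difference 2.32 ± 0.47, SE; adjusted p = 0.041 in edgeR), and asRNA:CR45955 had 3.59 and -1.2 (difference 4.79 ± 1.03, SE; adjusted p = 0.041 in edgeR). The histone genes His2A:CG33808, His2A:CG31618 and His2A:CG33850, near-identical copies of one repeat, had 0.71, 0.71 and 0.69 in acute feeding and -1.22, -1.22 and -1.28 in chronic feeding. The histone pseudogene His-Psi:CR33811 had 0.79 and -1.39 (difference 2.18), and asRNA:CR31144 had 2.75 and -1.48 (difference 4.23). CG17140 and CG17139 are annotated over the same span with the same counts, and both had 3.14 and -4.90 (difference 8.04). Adjusted p was 0.041 for each of these in edgeR. Chronic DMSO replicate 7 held 1901 CPM of testis and accessory gland markers, against at most 1.96 CPM in any other library of the series, and 1395 CPM of histone genes, against at most 546 CPM. Without it the test called 0 features, with 592 under an unadjusted p of 0.05 in edgeR. Without it and acute DMSO replicate 5 the test called 22, of which 21 were among the 29. It also called 0 without any 1 of acute DMSO replicates 1, 2, 3, 6 and 7 or acute 2-AAPA replicates 4 and 6, with 736 to 927 under 0.05, and 2 without acute 2-AAPA replicate 1. SPH93 had a difference of -13.69, or -6.77 without acute DMSO replicate 5, and its acute value of -6.42 was 0.49 without that library.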

How the data were processed

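RNA from pooled heads was made into directional poly-A libraries. The authors mapped reads to BDGP6 with an nf-core pipeline that kept reads with many locations, counted genes with featureCounts and transposable element families with TEcount, and deposited raw counts per feature. Versions of the counting tools, the strand setting and the handling of shared reads are not given in the sources used here. One deposited count table of 17784 features (17558 genes and 226 element families) served all 40 libraries. Low features were removed with filterByExpr, leaving 11477, and counts were fitted with edgeR 4.0.16 (TMM, robust quasi-likelihood) in R 4.3.3 over the 6 groups. The study's own scale (log2, cyclic LOESS) was run as an alternative, as were DESeq2 1.42.0, limma 3.58.1 with voom weights, other filters and scalings, covariates, a replicate block and each library left out. The script was tested on simulated data with 200 changed features. The simulated libraries held no deviant library and no length trend, so that test does not bear on how the calls moved between fits. CPM values are TMM-scaled, except the summed antisense CPM of each library, which was scaled by the library total alone. Gene lists were described by counts and medians. Coordinates are from an Ensembl annotation of the same build.

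Genes named were those past the test, those whose groups did not overlap, the member of each described list with the smallest p, both thioredoxin reductases and the 10 smallest p of the test between schedules. All other genes were chosen after their values were seen: the antisense genes, the genes of single libraries, cnc, Paics, pug, CG3999, CG11089, Prps, ACC, bmm, Lsd-1, ATPCL, Lsp2, Nepl4 and members given as examples of a list. The lists, members and tests were chosen with earlier results of these data known. The labels give each library its own number of heads but do not say whether pools came from separate cultures, so p-values measure only the spread between pools, which may be technical. Replicate numbers are shared by the groups, but same-numbered libraries did not deviate together.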

Additional observations from a re-analysis of the deposited data

Results flagged for a closer look

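A library was marked where its gap to the nearest other library of its group, as a share of the group's range in log2 CPM, passed Dixon's 95% critical value, 0.625 for 6 libraries and 0.568 for 7. Of 154 sets of values tested, 33 were marked, and chance marks about 1 in 20. The genes had been named with their values in view, so the share of marks describes these genes only.

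Acute DMSO replicate 5 was the highest library of its group for Srx (0.772), RpL29 (0.822), ND-MWFE (0.624), BomBc1 (0.723), Surf6 (0.618), asRNA:CR44095 (0.576), SPH93 (0.775), Mtk (0.707) and MtnA (0.808). It was the lowest for Keap1 (0.688), AcCoAS (0.569), Prps (0.713), ATPCL (0.613), cnc (0.825), ACC (0.871), library total (0.805), the scaling factor (0.701) and the length slope (0.786). In acute 2-AAPA replicate 1 the marked values, all highest, were CG42329 (0.785), Obp83b (0.868), Obp83a (0.87), lush (0.711) and Lip1 (0.88). Acute 2-AAPA replicate 4 was highest for mira (0.878) and Surf6 (0.826). Replicate 5 was highest for Desat2 (0.816) and SPH93 (0.748). Replicate 6 was highest for asRNA:CR44095 (0.636) and the summed antisense CPM (0.738). Among the other controls, acute DMSO replicate 4 was highest for Diedel (0.572), replicate 2 was highest for the mitochondrial share (0.651) and lowest for DIVER_I-int:Pao:LTR (0.681), and replicate 1 was lowest for Lsp2 (0.651).

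The effect of 2-AAPA differed between acute and chronic feeding for 10 named features (adjusted p = 0.041 each in edgeR). The log2 differences, acute minus chronic, were 2.32 for CG3679, 4.79 for asRNA:CR45955, 4.23 for asRNA:CR31144, 8.04 for CG17140 and for CG17139, and -13.69 for SPH93. Histone features had 2.18 (His-Psi:CR33811), 1.93 (His2A:CG33808), 1.93 (His2A:CG31618) and 1.96 (His2A:CG33850). Counts of calls in this test depend on single libraries, chronic DMSO replicate 7 among them.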

How the results depend on the processing

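The count of 3 features called was the same with DESeq2 size factors in edgeR, without chronic DMSO replicate 7 and with a fold change over 1.5. It was 0 with no filter on low counts, with cyclic LOESS and limma, with only the 13 libraries compared, with only the 20 acute libraries, and with the ribosomal RNA share or the length trend as a covariate. DESeq2's Wald test called 10 (9 higher, 1 lower) and limma voom with sample weights 626 (287 higher, 339 lower). With acute 2-AAPA replicates 3 and 6 and acute DMSO replicate 5 left out it was 5, all higher, and with acute 2-AAPA replicate 1 and acute DMSO replicate 5 left out, an alternative chosen after seeing the data, it was 6, all higher. With the replicate block the count was 0 (630 at an unadjusted p under 0.05 in edgeR, against 680 without it), and for the test between schedules 0. Same-numbered libraries did not deviate together: correlations ran between -0.505 and 0.619, and 1 of the 6 2-AAPA libraries correlated best with its own number. Leaving out each library gave 0 to 9 calls, 0 to 8 higher and 0 to 1 lower. It was 0 without any 1 of acute DMSO replicates 1, 2, 3, 4, 6 and 7, and 9 without acute 2-AAPA replicate 1. The test between schedules called 0 to 31 with each acute library left out, 0 with no filter, with cyclic LOESS and without chronic DMSO replicate 7, and 2 without acute 2-AAPA replicate 1 and acute DMSO replicate 5.

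Log2 fold changes that changed sign, with their lowest and highest values when each library was left out, were those of mira (-0.0032 without acute 2-AAPA replicate 4, up to 4.505), Surf6 (-0.073 without the same library, up to 1.96), Obp83a (-0.24 without acute 2-AAPA replicate 1, up to 2.59), Trxr1 (-0.12, up to 0.0058 without acute DMSO replicate 5), SPH93 (-7.77, up to 0.49 without acute DMSO replicate 5) and MtnA (-0.53, up to 0.017 without acute DMSO replicate 5). Without acute 2-AAPA replicates 3 and 6 and acute DMSO replicate 5, Trxr1 was 0.035, SPH93 0.80 and MtnA 0.010. Without acute 2-AAPA replicate 1 and acute DMSO replicate 5, Obp83a was -0.015 and SPH93 0.65. DESeq2 gave mira no adjusted p. SPH93 was 0.17 with sample weights, and the cause was not tested. Low counts limit GstE10, CG8736 and the antisense genes.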

Other observations

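A set of features shared its high values across both groups, and was noticed in the data. Taking features over 4-fold above the median of the other 12 libraries, 61 were high in all 4 of acute 2-AAPA replicates 2 and 6 and acute DMSO replicates 1 and 2. RpL38, a ribosomal protein gene, had 1390, 6881, 358, 217, 346 and 7768 reads in acute 2-AAPA, against 7804, 12301, 693, 402, 504, 342 and 413 in acute DMSO. UQCR-11, a subunit of respiratory complex III, had 656, 1398, 82, 39, 60 and 1997 reads in acute 2-AAPA, against 1392, 2484, 222, 69, 100, 33 and 62 in acute DMSO. The same libraries were high for both genes, and the log2 fold changes between the groups were -0.08 and 0.27. A further 56 features were over 4-fold below that median in both acute 2-AAPA replicate 4 and acute DMSO replicate 6. These patterns cross the groups.

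Replication-dependent histone genes and pseudogenes, a list drawn up after values were seen, had 23 higher and 5 lower of 116 at an unadjusted p under 0.05, beside 2.37% and 3.55% of all features, with a median log2 fold change of -0.15. None passed the adjusted test in edgeR. The weighted test in limma called 23 higher, beside 2.50% of all features, and all of these were His2A copies or histone pseudogenes. His3:CG33821, with the smallest unadjusted p of the list in edgeR, had a log2 fold change of -1.77. Copies of a histone gene are near-identical, so their calls are not separate observations. How shared reads were assigned was not given in the sources used here.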
